A study of Mus musculus with 18 samples.

Results

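The 43 genes described here are the mouse genes of rod phototransduction, the rod outer segment and rod identity. They were chosen by name and role from 78239 gene identifiers in each count table, and all 43 were matched by symbol. Earlier results of these data were known when the genes were chosen. The study delivered *nsHif1a*, a mouse *Hif1a* with amino acid changes that keep the protein stable and active in normoxia, or eGFP as a control. In mice, AAV2 particles carrying either gene behind the rod-specific mouse opsin (mOP) promoter were injected subretinally at postnatal day 29 to 32, and whole retinas were taken for RNA sequencing at 3 weeks post injection (wpi), with 5 AAV::eGFP and 5 AAV::*nsHif1a* libraries. The strain is C57BL/6J in the sample labels and 129S6 in the study's methods, and this discrepancy was not resolved. In culture, 661W cells, a photoreceptor-like line derived from a mouse retinal tumour, were transfected with plasmids carrying Myc-tagged *nsHif1a* or eGFP behind the CMV promoter and harvested after 20 h in normoxia, with 4 libraries per group. As a model, the retina is limited by the injection, since only part of the retinal area received virus and untransduced rods, cones and all inner cells enter the same RNA. The cells are limited by being a single line. Nothing in the sources used here says whether the 661W libraries came from separate cultures, so their p-values measure the spread between these libraries, which may be technical.

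Rods convert light into an electrical signal in a stack of membrane discs, the outer segment. Light-activated visual pigment switches on the G protein transducin, transducin releases phosphodiesterase 6 from its inhibitory subunit, cyclic GMP falls and the cyclic nucleotide-gated channel closes. Arrestin, a receptor kinase, a GTPase-accelerating complex and calcium-sensing proteins then end the response and restore cyclic GMP. The genes for this machinery are switched on together by the homeodomain factor CRX with NRL and NR2E3, and their transcripts are among the most abundant in the retina. HIF1 is a transcription factor that binds short DNA words with the core ACGTG or GCGTG and turns on genes for glycolysis, angiogenesis and other responses to low oxygen.

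The promoters of the rod genes are shown first because they carry a sequence feature that the choice of genes did not use. RefSeq promoter windows of assembly GRCm38.p6, from 250 bases before to 50 bases after the transcription start, were found for 33 of the 43 genes in 37 windows. No window was listed for *Gnat1*, *Guca1b*, *Kcnv2*, *Pde6a*, *Pde6g*, *Rcvrn*, *Reep6*, *Rgs9bp*, *Rp1* and *Rp1l1*. The word TAATCC, the core to which CRX binds, was searched on both strands and lay in the windows of 17 of the 33 genes. It was in 45.9% of the rod gene windows and in 7.06% of all 32851 windows of the table. Of its 22 matches, 15 began within the 100 bases before the start. The following stretches hold the 150 bases directly upstream of the start, 5′ to 3′ on the gene's strand, with TAATCC or its reverse complement GGATTA in capitals. *Crx*, *Cngb1*, *Gngt1*, *Sag* and *Rbp3* stand for the genes with the word, and *Tulp1* and *Impg2* for those without it, because they are the genes with the most stable decrease and the largest increase in the retina.
*Crx* (chr7:15879956-15880105, minus strand): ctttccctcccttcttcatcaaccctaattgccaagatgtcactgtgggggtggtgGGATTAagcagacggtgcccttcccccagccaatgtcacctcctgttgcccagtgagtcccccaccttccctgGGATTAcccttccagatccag
*Cngb1* (chr8:95306586-95306735, minus strand): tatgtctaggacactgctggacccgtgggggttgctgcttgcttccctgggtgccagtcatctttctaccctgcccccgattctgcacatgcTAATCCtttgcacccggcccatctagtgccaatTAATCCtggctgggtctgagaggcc
*Gngt1* (chr6:3993858-3994007, plus strand): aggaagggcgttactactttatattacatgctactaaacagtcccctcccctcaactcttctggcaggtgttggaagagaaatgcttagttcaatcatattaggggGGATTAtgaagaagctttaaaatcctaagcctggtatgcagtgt
*Sag* (chr1:87803530-87803679, plus strand): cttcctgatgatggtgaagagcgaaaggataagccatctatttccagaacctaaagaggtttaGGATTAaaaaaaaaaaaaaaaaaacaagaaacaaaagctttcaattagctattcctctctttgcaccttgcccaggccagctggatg
*Rbp3* (chr14:33953853-33954002, plus strand): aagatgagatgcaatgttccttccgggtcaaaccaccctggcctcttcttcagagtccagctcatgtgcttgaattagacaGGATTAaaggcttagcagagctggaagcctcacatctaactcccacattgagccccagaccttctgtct
*Tulp1* (chr17:28365217-28365366, minus strand): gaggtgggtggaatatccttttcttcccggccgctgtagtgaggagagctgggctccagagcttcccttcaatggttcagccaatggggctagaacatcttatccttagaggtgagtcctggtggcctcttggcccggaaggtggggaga
*Impg2* (chr16:56204163-56204312, plus strand): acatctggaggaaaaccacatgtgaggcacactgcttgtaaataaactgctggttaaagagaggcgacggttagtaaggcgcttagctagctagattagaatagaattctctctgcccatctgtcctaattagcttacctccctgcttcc
In *Crx* the word stood 94 and 21 bases before the start, in *Cngb1* 58 and 25, in *Gngt1* 44, in *Sag* 87 and in *Rbp3* 69. The word TGCTGA, the core of the half-site for NRL-type factors, lay in 10 of the 33 genes, or 27% of rod gene windows against 19.5% of all windows. The HIF cores were less frequent than in the whole table. ACGTG lay in 8.11% of rod gene windows and 19.6% of all windows, GCGTG in 21.6% and 32.4%, and either of them in 27% and 43.8%. The palindrome CACGTG, which contains ACGTG, was in none of the 37 rod gene windows and in 7.15% of all windows. Each HIF core contains the bases CG, and the rod gene windows and the whole table were not matched for base composition. These matches describe letters in short windows and not occupied sites. In the retinal comparison described next, the 17 genes with the word had a median log2 fold change (log2FC) of -0.14 (16 lower) and the 16 without it -0.21 (15 lower).

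Depth was even, with 12898220 to 16167522 counts assigned to genes in the retinal libraries and 13424326 to 17809585 in the 661W libraries. Expression of individual genes is given as CPM, the count of a gene relative to its library's total after TMM scaling. The delivered gene was visible in the cells, where *Hif1a* stood at 150 to 164 CPM with eGFP and at 1222 to 1954 CPM with *nsHif1a*. In the retina *Hif1a* was at 638 to 698 CPM in the control group and at 642 to 729 CPM in the *nsHif1a* group, and its log2FC of 0.05 (SE 0.041) did not pass the test (adjusted p = 0.504). The 8 HIF target genes examined rose in all 5 AAV::*nsHif1a* retinas, and all 8 passed the test. Over all genes tested, 3.31% were higher by adjusted p. The 8 were chosen with earlier results of these data known, so their rise is not independent evidence of HIF activity. On a Western blot at 3 wpi, the study also saw markedly more HIF1A protein in AAV::*nsHif1a* than in AAV::eGFP retinas. Several other features moved with the retinal groups. *Xist*, the RNA of the inactive X chromosome, had 1 to 3 counts in AAV::eGFP 3, 4 and 5 and over 1000 in AAV::eGFP 1 and 2 and in every AAV::*nsHif1a* library. Lens γ-crystallins took 0.0634 to 0.28% of the AAV::eGFP counts, and their share in the AAV::*nsHif1a* group ran from 0.0956 to 1.82% and exceeded 1% in libraries 1, 3 and 4. Microglia markers were higher in 10 of 10 genes (median log2FC 0.96), of which 0 passed the test, and their summed level spanned 59.5 to 252 CPM in the control group and 92.4 to 266 CPM in the *nsHif1a* group. The part of these features in the results was not tested except by the alternatives named beside them.

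In the retina the rod genes were lower with AAV::*nsHif1a* as a group, by amounts that were small for most genes and differed between them. All 43 passed the filter on low counts, and 40 had a negative and 3 a positive log2FC. Over all 18859 genes tested, 50.6% were negative. The median log2FC of the rod genes was -0.16, a change of -10.5% in transcript level, with an SD over genes of 0.13 and quartiles of -0.23 and -0.08. The median over all genes tested was -0.0021 with an SD of 0.36. None of the 43 passed both thresholds that define a called gene here, an adjusted p under 0.05 with an absolute log2FC above 0.5, in limma with sample quality weights. These thresholds were passed in the lower direction by 0.912% of all genes tested and in the higher direction by 1.08%. By adjusted p alone 12 rod genes were lower and 0 higher, where 2.47% of all genes were lower and 3.31% higher. At an unadjusted p under 0.05, 23 were lower and 1 was higher, where 11.0% of all genes were lower and 10.7% higher. The 12 genes that fell were *Crx*, *Gnat1*, *Gnb1*, *Pde6a*, *Slc24a1*, *Sag*, *Rgs9*, *Pdc*, *Rdh8*, *Reep6*, *Unc119* and *Tulp1*.

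**Figure D1:**
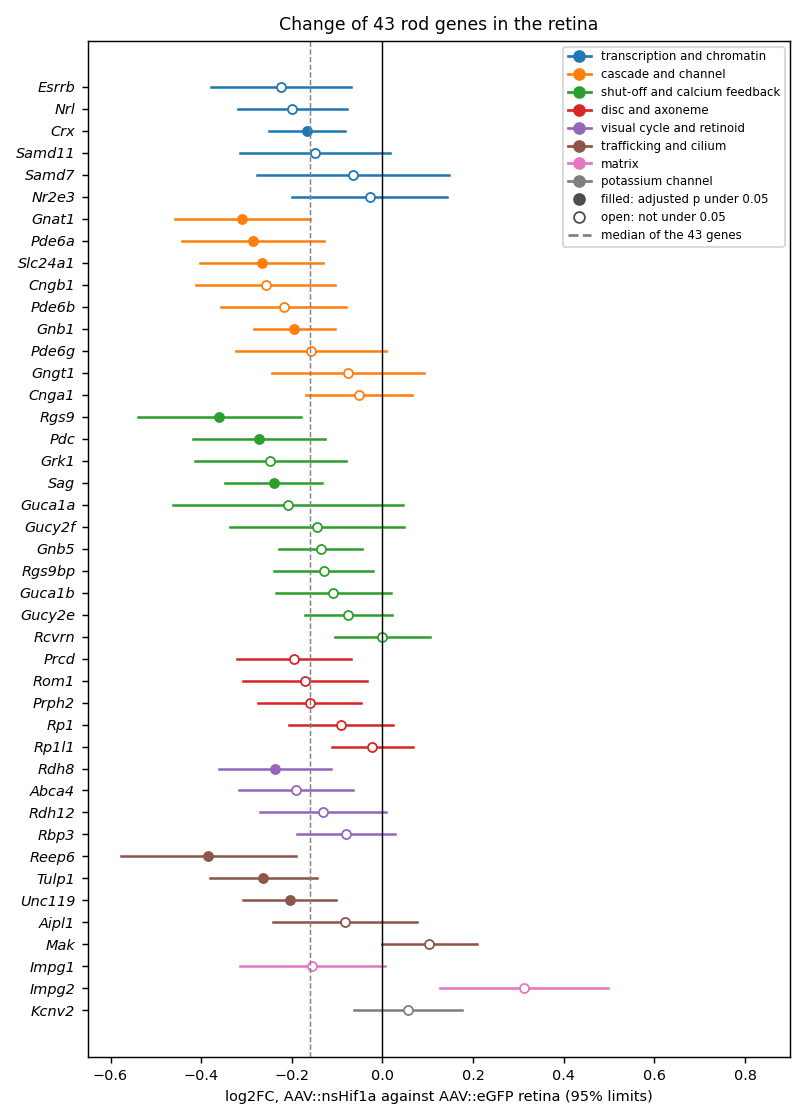
Log2 fold change of each of the 43 rod genes between AAV::nsHif1a and AAV::eGFP retinas (5 libraries per group; points, limma estimate; bars, 95% confidence limits), coloured by role. Most points lie left of 0 around the median of -0.16 (dashed line), the 12 filled points have an adjusted p under 0.05, and Impg2 stands alone to the right at 0.31.

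The log2FC differed between the genes, and their evenness was described without a test. Their SD of 0.13 exceeded the median SE of a single gene, 0.062, although the 95% confidence limits of 35 of the 43 genes held the list's own median. The 8 genes whose limits did not hold it were *Reep6*, *Rgs9* and *Gnat1* below and *Rcvrn*, *Rp1l1*, *Kcnv2*, *Mak* and *Impg2* above. The groups were fully apart for only 4 genes, *Gnb1*, *Sag*, *Pdc* and *Unc119*, all with AAV::*nsHif1a* below. Over all genes tested 2.69% were apart in this direction and 3.25% in the other. For 20 of the 43 genes all 5 AAV::*nsHif1a* libraries lay below the mean of the AAV::eGFP libraries, and for another 14 genes 4 of the 5 did. The matching shares over all genes tested were not counted. Whether 20 and 14 are more than usual therefore cannot be judged, and they only describe the list. Across the 43 genes, log2FC and log2 CPM in AAV::eGFP were weakly related (Pearson r = -0.19, Spearman rho = -0.33, across genes of the same 10 libraries, which are not independent).

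Between libraries the rod genes moved together. Their mean deviation from the AAV::eGFP mean, on the log2 CPM scale, was -0.023, -0.095, 0.079, 0.04 and -0.00078 in AAV::eGFP 1 to 5. It was -0.0082, -0.14, -0.19, -0.17 and -0.25 in AAV::*nsHif1a* 1 to 5. AAV::*nsHif1a* 1 thus lay within the control range and the other 4 below all controls. In AAV::*nsHif1a* 1, 22 of the 43 genes were below the AAV::eGFP mean, against 37 to 39 in the other 4 libraries, and it also had the smallest rise of HIF targets, a mean of 1.09 against 1.50 to 1.80. AAV::eGFP 2, at -0.095, was the lowest control, with 37 genes below the mean and a mean deviation of microglia markers of 1.53, the highest of the 10 libraries. The 43 genes together made up 5.76 to 6.46% of a control library and 5.06 to 5.78% of an AAV::*nsHif1a* library. In whole retina, fewer rods and less of these RNAs per rod cannot be told apart. The study reported a progressively thinner outer retina after AAV::*nsHif1a* but not AAV::eGFP, measured at other times than the RNA. Its part in these values was not tested.

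**Figure D2:**
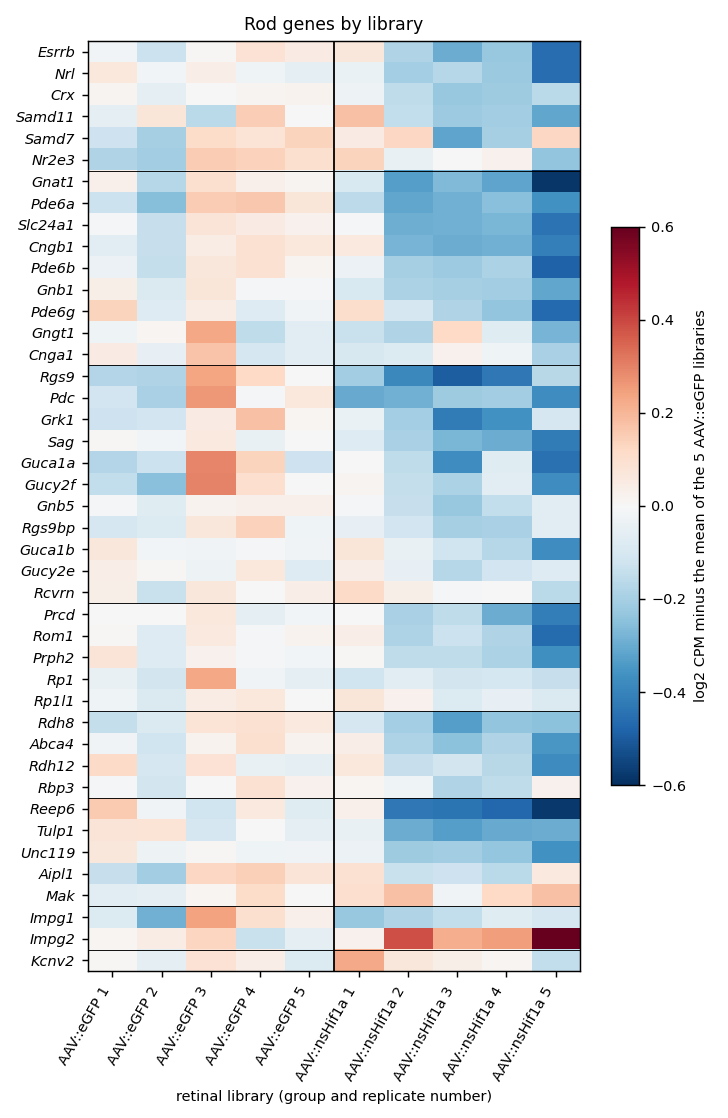
Deviation of each rod gene (rows, grouped by role) in each retinal library (columns) from the mean of the 5 AAV::eGFP libraries, on the log2 CPM scale. Blue fills most of the columns AAV::nsHif1a 2 to 5, column AAV::nsHif1a 1 resembles the controls, and the Impg2 row is red in the same 4 libraries.

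The result depended on which libraries entered it. Leaving out AAV::*nsHif1a* 1 raised the number of rod genes with an adjusted p under 0.05 from 12 to 22 (21 lower, and *Impg2* higher) and moved the median log2FC to -0.21. Leaving out AAV::eGFP 3, 4 or 5, or AAV::*nsHif1a* 2 or 3, left 3 or 4 such genes. In the 7 libraries with *Xist* counts, 5 of AAV::*nsHif1a* against AAV::eGFP 1 and 2, 33 of 43 genes were lower, the median was -0.12 and only *Tulp1* had an adjusted p under 0.05 (adjusted p = 0.0477). The group and the *Xist* class overlap in the design, since no AAV::*nsHif1a* library lacks *Xist*. The shares over all genes tested were not counted in these fits. The changes in number therefore only describe the list and cannot be called particular to the rod genes. *Tulp1* was the only gene that passed in all 10 fits without a library and in all 13 other settings, and *Gnb1* passed in all 10 of the former.

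The genes of transcription and chromatin were lower in 6 of 6, with a median log2FC of -0.16, and only *Crx* fell by the test. In the libraries with *Xist* counts alone, 2 of the 6 turned positive, *Nr2e3* to 0.18 and *Samd7* to 0.11, and neither passed the test there. In AAV::eGFP 1 to 5 the level of *Crx* was 891, 848, 882, 892 and 895 CPM, and in AAV::*nsHif1a* 1 to 5 it was 864, 794, 753, 761 and 788 CPM. AAV::eGFP libraries lay between 848 and 895 CPM and overlapped with AAV::*nsHif1a* 1 alone. CRX drives photoreceptor genes in rods and cones, and its transcript fell, log2FC -0.17 (SE 0.039, adjusted p = 0.0266). *Nrl*, the leucine zipper factor that commits a precursor to the rod fate, had a log2FC of -0.20 (adjusted p = 0.0566). *Esrrb* stood at 492, 455, 499, 528 and 515 CPM in AAV::eGFP 1 to 5 and at 520.4, 439, 404, 424 and 362 CPM in AAV::*nsHif1a* 1 to 5. *Esrrb*, an orphan nuclear receptor of rods, had the lowest log2FC of the role, -0.22 (SE 0.071, adjusted p = 0.0903), and overlapped through AAV::*nsHif1a* 1, which lay above 4 of the 5 controls. In AAV::eGFP 1 to 5 the level of *Nr2e3* was 349, 343, 439, 435 and 423 CPM, and in AAV::*nsHif1a* 1 to 5 it was 433, 383, 396, 402 and 335 CPM. *Nr2e3*, the nuclear receptor that represses cone genes in rods, had the highest log2FC, -0.03 (SE 0.079, adjusted p = 0.873), and its libraries were mixed between groups. *Samd11* and *Samd7*, linked to Polycomb repression in photoreceptors, had log2FC of -0.15 and -0.06.

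Genes of the excitation cascade and the channel were lower in 9 of 9, with the lowest median of the larger roles, -0.22, and 4 of them fell. For *Gnat1*, the AAV::eGFP libraries 1 to 5 gave 10589, 9222, 11103, 10583 and 10479 CPM and the AAV::*nsHif1a* libraries 1 to 5 gave 9738, 8250, 8630, 8340 and 6921 CPM. *Gnat1*, the α subunit of rod transducin (GRCm39 chr9:107551673-107556911), was the most abundant of the 43 genes. It fell by 19.3% (95% limits -27.2 and -10.5%), log2FC -0.31 (SE 0.069, adjusted p = 0.0214), and only AAV::*nsHif1a* 1 reached into the control range. In AAV::eGFP 1 to 5 the level of *Gnb1* was 4919, 4515, 5047, 4768 and 4773 CPM, and in AAV::*nsHif1a* 1 to 5 it was 4510, 4215, 4179, 4155 and 3866 CPM. *Gnb1*, the transducin β subunit of rods that many other cells also use, showed groups that just did not overlap, log2FC -0.19 (SE 0.041, adjusted p = 0.0173). Its γ partner *Gngt1* had a log2FC of -0.08 (adjusted p = 0.612). Among the subunits of phosphodiesterase 6, catalytic *Pde6a* fell, log2FC -0.29 (SE 0.072, adjusted p = 0.0386), which became -0.08 (adjusted p = 0.517) in the libraries with *Xist* counts. Catalytic *Pde6b* had -0.22 (adjusted p = 0.068) and inhibitory *Pde6g* -0.16 (adjusted p = 0.254). The exchanger *Slc24a1*, which extrudes calcium from the outer segment, fell, log2FC -0.27 (SE 0.062, adjusted p = 0.0265). The channel's modulatory subunit *Cngb1* had a log2FC of -0.26 (adjusted p = 0.0513). *Cnga1* stood at 654, 610.0, 711, 590.2 and 603 CPM in AAV::eGFP 1 to 5 and at 590.5, 597, 643, 621 and 553 CPM in AAV::*nsHif1a* 1 to 5. *Cnga1*, the pore-forming subunit, had the highest log2FC of the role, -0.05 (SE 0.053, adjusted p = 0.617), and its groups overlapped widely.

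Genes that end the light response were lower in 11 of 11, with a median of -0.14, and 3 fell. In the libraries with *Xist* counts alone *Rcvrn* turned to 0.06 and *Gucy2f* to 0.05, and *Rcvrn*, close to 0 throughout, also turned positive with RLE factors and without a filter on low counts. *Rgs9* stood at 413, 411, 549.6, 507 and 466 CPM in AAV::eGFP 1 to 5 and at 404, 357, 331, 347 and 415 CPM in AAV::*nsHif1a* 1 to 5. *Rgs9*, the GTPase-accelerating protein of transducin (GRCm39 chr11:109116158-109189025), fell by 22.1%, log2FC -0.36 (SE 0.082, adjusted p = 0.0249). Its values overlapped where AAV::*nsHif1a* 5 exceeded AAV::eGFP 1 and 2, and the AAV::eGFP libraries themselves spread from 411 to 550 CPM. In the 7 libraries with *Xist* counts its log2FC was -0.18. The partners of RGS9 in the complex had smaller log2FC, -0.14 for *Gnb5* and -0.13 for the membrane anchor *Rgs9bp*. *Sag*, rod arrestin, ranged from 5053 to 5429 CPM in AAV::eGFP and from 3908 to 4947 CPM in AAV::*nsHif1a* libraries without overlap, log2FC -0.24 (SE 0.049, adjusted p = 0.0155). *Pdc*, phosducin, which binds the βγ subunits of transducin, ranged from 1963 to 2692 and from 1739 to 1947 CPM, also without overlap, log2FC -0.27 (SE 0.067, adjusted p = 0.0344). In the libraries with *Xist* counts the log2FC of *Pdc* was -0.11 (adjusted p = 0.318). The pigment kinase *Grk1* had a log2FC of -0.25 (adjusted p = 0.0818). The guanylate cyclases *Gucy2f* and *Gucy2e*, which restore cyclic GMP, had -0.14 and -0.08, and their activating protein *Guca1b* had -0.11. *Guca1a*, another activating protein, had -0.21 from 7.06 to 11.9 CPM, but 83.7% of its exon bases lie inside another gene model of the same strand, *Gm50461*, so its counts are uncertain. In AAV::eGFP 1 to 5 the level of *Rcvrn* was 1062, 944, 1087, 1034 and 1064 CPM, and in AAV::*nsHif1a* 1 to 5 it was 1121, 1062, 1033, 1034 and 928 CPM. *Rcvrn*, the calcium sensor that inhibits the pigment kinase, had the highest log2FC of the role, -0.00043 (SE 0.048, 95% limits -7.0 and 7.5%), with mixed groups.

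Disc and axoneme genes were lower in 5 of 5, with a median of -0.16, and 0 of them had an adjusted p under 0.05. In the libraries with *Xist* counts alone *Rp1l1* turned to 0.04. *Prcd* stood at 137, 138, 143, 132 and 136 CPM in AAV::eGFP 1 to 5 and at 137, 119.7, 123, 111 and 103 CPM in AAV::*nsHif1a* 1 to 5. *Prcd*, a small disc membrane protein, had the lowest log2FC, -0.20 (SE 0.058, adjusted p = 0.0697), and AAV::*nsHif1a* 1 lay inside the control range. *Prph2* and *Rom1*, the tetraspanins that shape the disc rim, had log2FC of -0.16 (adjusted p = 0.0972) and -0.17 (adjusted p = 0.135). Their log2 ratio to each other was 1.23 ± 0.044 with AAV::eGFP and 1.25 ± 0.052 with AAV::*nsHif1a* (SD, n = 5). *Rp1*, a microtubule protein of the axoneme, had -0.09. In AAV::eGFP 1 to 5 the level of *Rp1l1* was 673, 646, 707, 717 and 687 CPM, and in AAV::*nsHif1a* 1 to 5 it was 720.3, 698, 647, 663 and 645 CPM. *Rp1l1*, its relative, had the highest log2FC of the role, -0.02 (SE 0.041, adjusted p = 0.797), with mixed groups.

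Visual cycle genes were lower in 4 of 4, with a median of -0.16, and 1 fell. *Rdh8* stood at 85.4, 88.8, 99.6, 100.4 and 98.1 CPM in AAV::eGFP 1 to 5 and at 88.0, 81.7, 75.0, 80.0 and 79.5 CPM in AAV::*nsHif1a* 1 to 5. *Rdh8*, the outer segment enzyme that reduces all-trans-retinal, fell, log2FC -0.24 (SE 0.057, adjusted p = 0.0301), and overlapped where AAV::*nsHif1a* 1 exceeded AAV::eGFP 1. In the libraries with *Xist* counts its log2FC was -0.12 (adjusted p = 0.383). *Abca4*, the flippase that clears retinal from discs, had -0.19 (adjusted p = 0.0769) and *Rdh12*, a retinol dehydrogenase of the inner segment, -0.13. In AAV::eGFP 1 to 5 the level of *Rbp3* was 4622, 4290, 4630, 4947 and 4719 CPM, and in AAV::*nsHif1a* 1 to 5 it was 4673, 4551, 4096, 4167 and 4714 CPM. *Rbp3*, the retinoid carrier of the interphotoreceptor matrix, had the highest log2FC, -0.08 (SE 0.05, adjusted p = 0.377), with AAV::*nsHif1a* 5 as high as the middle of the controls.

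Of the trafficking and ciliary genes 4 of 5 were lower, with a median of -0.21, and 3 fell. *Reep6* stood at 742, 654, 612, 693 and 632 CPM in AAV::eGFP 1 to 5 and at 680.4, 494, 491, 479.7 and 445 CPM in AAV::*nsHif1a* 1 to 5. *Reep6*, an endoplasmic reticulum protein needed for trafficking in rods (GRCm39 chr10:80165787-80172275), had the lowest log2FC of all 43 genes, a change of -23.4% (95% limits -33.0 and -12.4%), log2FC -0.38 (SE 0.089, adjusted p = 0.0256). AAV::*nsHif1a* 2 to 5 lay below every control, whereas AAV::*nsHif1a* 1 lay inside the control range. In the 7 libraries with *Xist* counts the log2FC of *Reep6* was -0.45 (SE 0.12), which did not pass the test there (adjusted p = 0.117). *Tulp1*, a protein of transport to the outer segment (GRCm39 chr17:28570489-28584196), stood at 933, 935, 826, 882 and 852 CPM in AAV::eGFP 1 to 5 and at 856, 720, 703, 716 and 719 CPM in AAV::*nsHif1a* 1 to 5. Again only AAV::*nsHif1a* 1 reached into the control range, and the gene fell, log2FC -0.26 (SE 0.054, adjusted p = 0.0155). *Unc119*, which carries the lipid-modified transducin α subunit, ranged from 1215 to 1304 CPM in AAV::eGFP and from 965 to 1213 CPM in AAV::*nsHif1a* libraries without overlap, log2FC -0.21 (SE 0.047, adjusted p = 0.025). *Aipl1*, a chaperone for phosphodiesterase 6, had -0.08, and 0.10 in the libraries with *Xist* counts. For *Mak*, the AAV::eGFP libraries 1 to 5 gave 188, 188, 197, 212 and 195 CPM and the AAV::*nsHif1a* libraries 1 to 5 gave 210.2, 222, 193, 213 and 221 CPM. *Mak*, a kinase that limits the length of the cilium, had a positive log2FC, 0.10 (SE 0.049, adjusted p = 0.239), and mixed groups.

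The interphotoreceptor matrix genes had log2FC of opposite sign, and neither passed the test. *Impg2* stood at 644, 659.6, 699, 583 and 614 CPM in AAV::eGFP 1 to 5 and at 650.0, 835, 744, 759.7 and 1017 CPM in AAV::*nsHif1a* 1 to 5. *Impg2*, a membrane-bound proteoglycan of the matrix around the outer segments (GRCm39 chr16:56024676-56094119), was above every control in AAV::*nsHif1a* 2 to 5 and inside the control range in AAV::*nsHif1a* 1. Its log2FC was the highest of the 43 genes and just missed the threshold in the test, log2FC 0.31 (SE 0.086, adjusted p = 0.0529). With the γ-crystallin level as a covariate it was 0.49 (adjusted p = 0.00926), and without AAV::*nsHif1a* 1 it was 0.36. In the libraries with *Xist* counts it was 0.27 (adjusted p = 0.278), and the adjusted p was 0.107 in edgeR, 0.0142 in DESeq2 and 0.163 with the replicate number as a block. *Impg2* passed in 1 of the 10 fits without a library, with log2FC from 0.25 to 0.36, and in 2 of the 13 other settings. For *Impg1*, the AAV::eGFP libraries 1 to 5 gave 381, 330.4, 477, 432 and 413 CPM and the AAV::*nsHif1a* libraries 1 to 5 gave 345, 356, 364, 384 and 377 CPM. *Impg1*, a related matrix proteoglycan, had log2FC -0.15 (SE 0.074, adjusted p = 0.247), and all 5 AAV::*nsHif1a* libraries were inside the range of the controls. In the 7 libraries with *Xist* counts the value for *Impg1* turned to 0.04 (adjusted p = 0.807). The log2 ratio of *Impg1* to *Impg2* was -0.66 ± 0.22 with AAV::eGFP and -1.12 ± 0.21 with AAV::*nsHif1a* (SD, n = 5), and the groups overlapped. For *Kcnv2*, the AAV::eGFP libraries 1 to 5 gave 459.6, 441, 486, 469.8 and 432 CPM and the AAV::*nsHif1a* libraries 1 to 5 gave 535, 479, 468, 461 and 413 CPM. *Kcnv2*, a modulatory potassium channel subunit of the inner segment, had log2FC 0.06 (SE 0.055, adjusted p = 0.601), and AAV::*nsHif1a* held both its highest and its lowest library.

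Levels of different genes were compared as CPM per kilobase of exon, scaled to the same total in each library. With AAV::eGFP *Gnat1* was at 12860 ± 1130 (SD, n = 5) and ranked 9 among all genes, followed by *Sag* at 8737 ± 399, *Pde6g* at 5207 ± 439, *Prph2* at 4438 ± 282, *Rom1* at 3315 ± 192 and *Rcvrn* at 2845 ± 225. Each of these neighbours differed by more than the SD of either. The lowest were *Gucy2f* at 83.1 ± 13.1, on the X chromosome, and *Guca1a*, with its uncertain counts, at 32.2 ± 4.7. With AAV::*nsHif1a* the first 6 genes ran from *Gnat1* at 9660 ± 1008 to *Rom1* at 2740 ± 291 and *Rcvrn* at 2653 ± 216, and the last 2 did not differ beyond their SD.

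Cone genes did not move with the rod genes as a list. Of 10 cone markers 6 were higher and 4 lower, with a median log2FC of 0.07, and their summed level was 1271 to 1472 CPM with AAV::eGFP and 1376 to 1644 CPM with AAV::*nsHif1a*. *Gnb3*, the cone transducin β subunit that ON bipolar cells also use, passed both thresholds, log2FC 0.52 (SE 0.081, adjusted p = 0.00326), with groups apart. The next by size were *Arr3*, cone arrestin, at -0.32 (adjusted p = 0.141) and the opsin *Opn1mw*, which fell, log2FC -0.27 (SE 0.06, adjusted p = 0.0232). Both *Arr3* and *Opn1mw* lie on the X chromosome, and neither was examined in the libraries with *Xist* counts alone. The log2 ratio of the β subunits *Gnb1* to *Gnb3* was 3.60 ± 0.13 with AAV::eGFP and 2.89 ± 0.26 with AAV::*nsHif1a* (SD, n = 5), and the groups did not overlap. For the other 8 rod and cone pairs examined, the ratios overlapped between groups, with differences from -0.37 for *Cngb1* to *Cngb3* to 0.09 for *Sag* to *Arr3*.

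A further 39 photoreceptor genes, of the synapse, the connecting cilium and retinal disease, were lower in 28 with a median of -0.08. None passed both thresholds, and by adjusted p 9 were lower and 2 higher. The 9 included *Cacna1f*, *Rpgrip1*, *Fscn2*, *Nxnl1*, *Rorb*, *Crb1* and *Ttc8*, with log2FC from -0.37 for *Nxnl1* to -0.31 for *Rorb*. The 2 were *Guk1* at 0.21 and *Lrit1* at 0.16. *Cacna1f* lies on the X chromosome, and these 39 genes were not examined in the libraries with *Xist* counts alone. Markers of the inner retina had medians near 0, 0.04 for bipolar cells, 0.0058 for amacrine and horizontal cells, -0.0061 for ganglion cells and 0.07 for Müller glia. Markers of endothelial cells were higher in 5 of 5 (median 0.26, 1 by adjusted p). Pigment epithelium markers ranged from 33.4 to 526 CPM in sum with AAV::eGFP and from 28.5 to 531 CPM with AAV::*nsHif1a*, and 0 of the 8 tested had an adjusted p under 0.05.

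**Figure D3:**
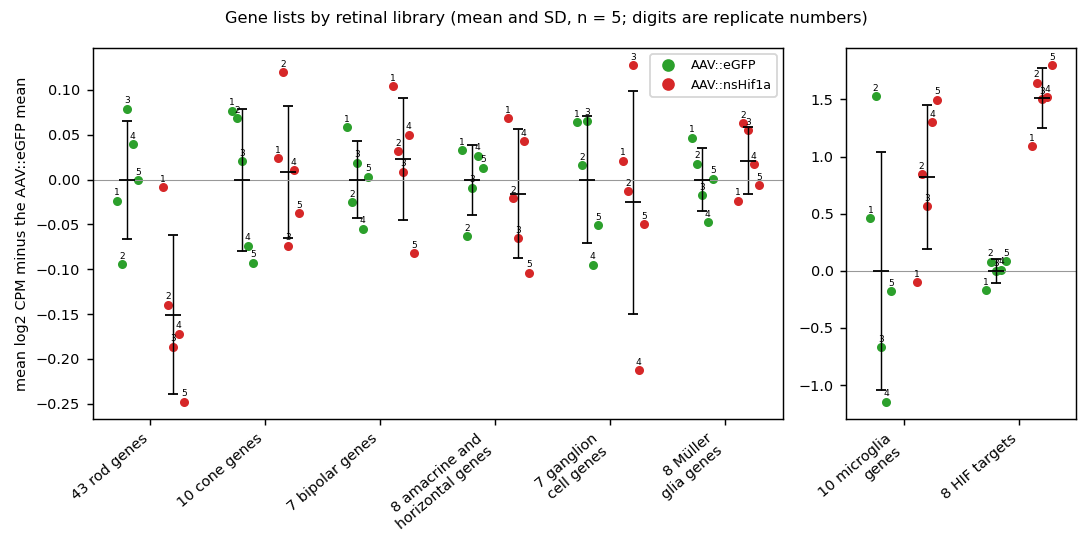
Mean deviation of gene lists from the AAV::eGFP mean (log2 CPM scale, with a wider axis in the right panel) in each retinal library, with replicate numbers, group mean and SD. The rod genes of AAV::nsHif1a 2 to 5 lie below all controls, cone and inner retinal lists overlap between groups, microglia markers spread widely in both, and HIF targets are 1.09 to 1.80 above the controls.

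In 661W cells most rod genes were hardly detected. Of the 43 genes 32 did not pass the filter and had at most 11 counts in any library, and 4 of them, *Guca1a*, *Gucy2f*, *Mak* and *Impg1*, had 0 counts in all 8 libraries, where 3 counts correspond to 0.168 to 0.223 CPM. The transcription factor genes *Nrl*, *Nr2e3* and *Crx* had 0 to 2 counts per library, below the 3 counts taken here as the detection floor. Summed over the 32 genes, the libraries held 75, 73, 57 and 59 counts with eGFP and 52, 40, 65 and 61 counts with *nsHif1a*. Within these, 13 genes had 38 counts in all in the eGFP libraries and 0 in every *nsHif1a* library, 15 had counts in both groups and 0 had counts in *nsHif1a* alone. With so few counts per gene, no difference of a single gene was detectable at this depth. The same split was not counted for other genes with few counts. Whether 13 against 0 is unusual therefore cannot be judged, and it only describes the list.

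The 11 genes that passed the filter were *Samd7*, *Gnb1*, *Pde6a*, *Sag*, *Rgs9*, *Gnb5*, *Rom1*, *Abca4*, *Rdh8*, *Reep6* and *Unc119*, and 10 of them averaged at least 1 CPM. *Gnb1* stood far above the rest at 568 CPM over the 8 libraries, then came *Unc119* at 19.7, *Gnb5* at 9.64, *Pde6a* at 8.72, *Rom1* at 4.60, *Abca4* at 3.90, *Reep6* at 2.45, *Samd7* at 2.01, *Sag* at 1.55 and *Rdh8* at 1.21 CPM. In limma 0 of the 11 passed both thresholds, 0 had an adjusted p under 0.05 and 0 an unadjusted p under 0.05, where the respective shares of the 15962 genes tested were 1.27%, 2.49% and 20.7%. edgeR and DESeq2 also gave 0 by adjusted p. The median log2FC of the 11 genes was 0.00028. *Gnb1* stood at 581, 584, 583 and 585 CPM in eGFP 1 to 4 and at 527, 525, 574 and 585 CPM in *nsHif1a* 1 to 4. Its 3 lowest libraries were *nsHif1a* 1, 2 and 3, and *nsHif1a* 4 overlapped with the eGFP libraries, log2FC -0.08 (SE 0.043, adjusted p = 0.304). *Samd7* had 18, 17, 52 and 33 counts in eGFP 1 to 4 and 0, 0, 75 and 67 counts in *nsHif1a* 1 to 4. *Samd7* was at 0 in *nsHif1a* 1 and 2 and above every eGFP library in *nsHif1a* 3 and 4. *Rdh8* had 12, 10, 27 and 30 counts in eGFP 1 to 4 and 3, 0, 41 and 32 counts in *nsHif1a* 1 to 4. *Rdh8* showed the same split, with *nsHif1a* 1 and 2 lowest and *nsHif1a* 3 at the top. Both genes were also lower in eGFP 1 and 2 than in eGFP 3 and 4. Without *nsHif1a* 3, *Samd7* and *Rdh8* passed both thresholds downwards and *Rgs9* upwards, and *Gnb1* was lower by adjusted p alone, and the same 4 genes passed without *nsHif1a* 4. The shares over all genes tested were not counted in these fits, so whether 4 of 11 is unusual cannot be judged. With the replicate number as a block, 0 of the 11 had an adjusted p under 0.05.

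**Figure D4:**
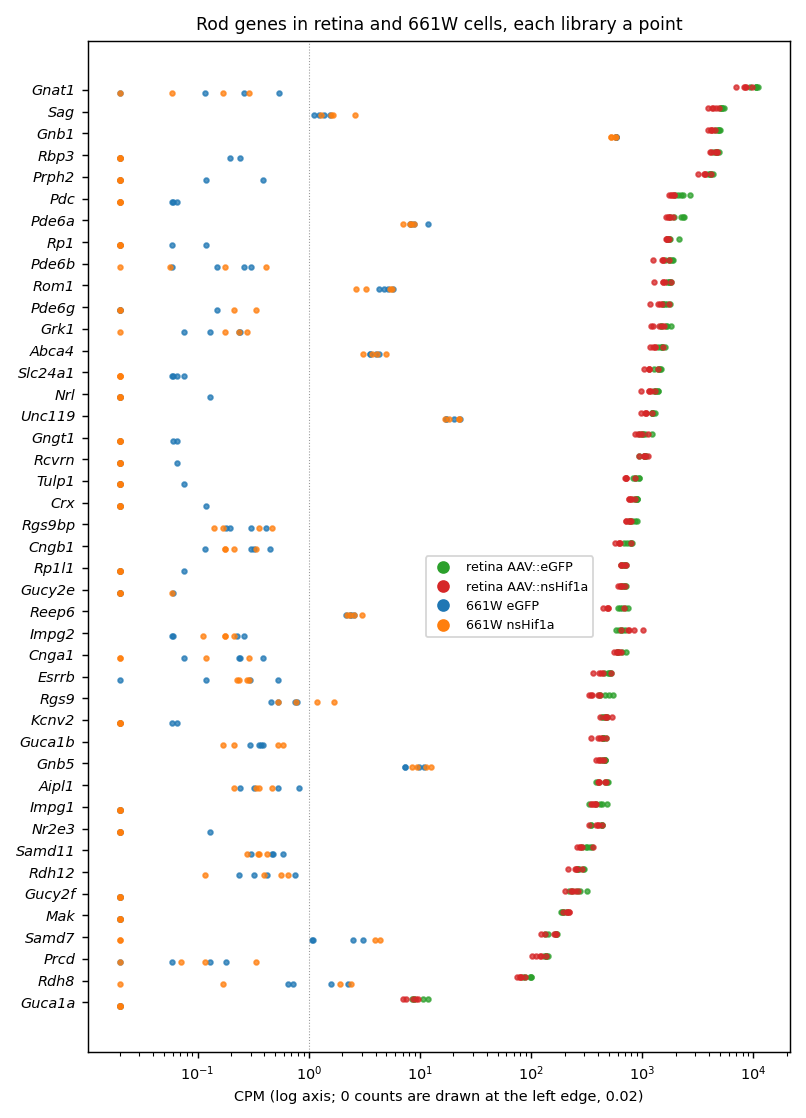
CPM of each rod gene in every library on a log axis, ordered by the level in AAV::eGFP retina (green and red, retina; blue and orange, 661W; 0 counts are drawn at 0.02). In the retina all genes but Guca1a lie at 75.0 CPM or more, and in 661W cells only Gnb1 exceeds 100 CPM while most genes lie below 1 CPM (dotted line).

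The effect of *nsHif1a* in the retina was set against its effect in 661W cells in a single model over all 18 libraries. Of the 43 rod genes, 0 differed between the systems by adjusted p and 0 at an unadjusted p under 0.05. Of all 20999 genes tested, 2.33% and 16.8% did. For 32 of the 43, which did not pass the filter in the cells, this test could hardly show a difference. These genes had at most 11 counts in any 661W library, so their lack of a difference does not show a like response. edgeR also gave 0 by adjusted p. The gene nearest to a difference was *Gnb1*, the only rod gene abundant in both systems, whose log2FC was lower in the retina by 0.13 with 95% limits from -0.26 to 0.001 (adjusted p = 0.302 in limma). The log2FC in the retina minus that in the cells was -0.20 for *Unc119* with limits from -0.51 to 0.10, and -0.32 for *Gnb5* with limits from -0.67 to 0.03. For genes with few counts in the cells the limits were wide, as for *Prph2*, where the difference was 1.50 with limits from -0.58 to 3.58.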

How the data were processed

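RNA from whole retinas (5 AAV::eGFP, 5 AAV::*nsHif1a*) and 661W cells (4 eGFP, 4 *nsHif1a*) was sequenced from stranded mRNA libraries. The authors aligned reads with Rsubread to GRCm39 (build and featureCounts per the labels) and deposited whole-number featureCounts counts per gene, counted on the antisense strand, for each of the 2 systems. Gene names came from gencode M39 of the same build, which named 78168 of 78239 identifiers. Groups were taken from the sample titles.

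Counts were filtered with filterByExpr (minimum count 10), scaled by TMM (edgeR 4.0.16) and tested in limma 3.58.1 (R 4.3.3) with voomWithQualityWeights, each system alone and both in an interaction model. Tests were two-sided, p-values were adjusted by Benjamini-Hochberg over all genes tested, and a gene was called at an adjusted p under 0.05 with an absolute log2FC above 0.5. The depth of 12898220 to 17809585 counts per library puts 3 counts at 0.168 to 0.233 CPM, and such limits cover counting error only. Alternatives were edgeR and DESeq2 1.42.0, other scalings and filters, covariates, a replicate block and leaving out each library.

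The 43 genes, their roles and the other lists were chosen with earlier results of these data known. All 43 are named, and values in every retinal library are given for the genes with the lowest and highest log2FC of each role. *Crx*, *Gnb1* and *Tulp1* were added after their values were seen, as were the names of further photoreceptor genes with an adjusted p under 0.05, and *Hif1a* is given by its range. In 661W, genes averaging at least 1 CPM are named, and of marker lists at most 3 genes by absolute log2FC. Deviations from group means correlated between libraries of the same replicate number in 661W (r 0.227 to 0.269 in 4 of 4 pairs). Not every library correlated best with its own number, so a pairing by number was not established. In the retina r ran from -0.148 to 0.138 between libraries of the same number, and no pairing was established there either. No pair of libraries matched within sampling noise.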

Additional observations from a re-analysis of the deposited data

Results flagged for a closer look

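Within a group, 6 of the 116 sets of 4 or 5 values examined held a library that lay apart from the others by Dixon's criterion, and chance gives about 1 in 20. Among the AAV::*nsHif1a* retinas, AAV::*nsHif1a* 1 was the highest for *Cngb1* (790 CPM, the others 570.3 to 625), for *Reep6* (680.4 CPM, the others 445 to 494) and for *Tulp1* (856 CPM, the others 703 to 720.2). Among the AAV::eGFP retinas, AAV::eGFP 2 was lowest for *Crx* (848 CPM, the others 882 to 895), AAV::eGFP 1 was highest for *Guca1b* (473 CPM, the others 445 to 447) and AAV::eGFP 3 was highest for *Rp1* (2122 CPM, the others 1671 to 1781).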

How the results depend on the processing

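In the retina, 40 rod genes were lower in limma, edgeR and DESeq2, 37 to 40 when a library was left out and 33 with *Xist* alternatives, and the median log2FC stayed negative in all of these. The 12 lower genes by adjusted p became 2 with edgeR, 5 without quality weights, 3 with the replicate block, 1 with *Xist* class as a covariate, 1 in the libraries with *Xist* counts, 3 with γ-crystallins as a covariate and 3 to 21 without a library. The 0 higher genes became 1 with DESeq2, 1 with γ-crystallins and 0 to 1 without a library. The 0 genes past both thresholds became 7 lower at a log2FC threshold of 0.25 and 12 without one. For these settings the shares over all genes tested were not counted, so the numbers only describe the list. The causes were not tested.

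Single genes turned positive as follows. With *Xist* class as a covariate and in the *Xist* libraries alone, *Nr2e3* was at 0.18 and 0.18, *Samd7* 0.11 and 0.11, *Rcvrn* 0.056 and 0.057, *Gucy2f* 0.052 and 0.054, *Rp1l1* 0.035 and 0.036, *Aipl1* 0.099 and 0.10, and *Impg1* 0.036 and 0.039. *Samd7* was at 0.13 with γ-crystallins. *Rcvrn* was at 0.00037 with RLE factors and 0.00077 without a filter. Without a library, *Rcvrn* ranged from -0.027 to 0.024, *Nr2e3* from -0.092 to 0.035, *Samd7* from -0.16 to 0.041 and *Rp1l1* from -0.047 to 0.0021. In the retina the replicate numbers did not pair the libraries.

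In 661W the median log2FC was at 0, and turned to -0.0022 with RLE, -0.0024 with upper quartile, -0.010 with library totals, -0.35 without a filter (39 genes), -0.042 at 1 CPM and -0.071 to 0.12 without a library. The value of -0.35 is over a larger set that includes genes with very few counts, and the 11 genes alone had a median of 0.0047 without a filter. The SD of the 11 log2FC, 0.93, became 0.29 with edgeR, 0.29 with DESeq2 and 0.31 with the replicate block. It became 0.33 with replicate sets as a covariate, and 0.41 to 1.99 without a library. The sets were replicates 1 and 2 against 3 and 4, and the main fit did not include them. Without a library, 0 to 2 genes were past both thresholds downwards and 0 to 1 upwards, and 0 to 3 lower and 0 to 1 higher by adjusted p. The matching shares over all genes were not counted in these fits. *Samd7* turned to 0.13 with edgeR and 0.11 with DESeq2, and *Abca4* to -0.0022, -0.0024, -0.010 and -0.00079 with RLE, upper quartile, library totals and 1 CPM. Without a library, *Samd7* ranged from -5.40 to 0.89, *Rdh8* from -3.67 to 0.69, *Unc119* from -0.12 to 0.20, *Abca4* from -0.12 to 0.12, *Rom1* from -0.72 to 0.11 and *Reep6* from -0.0055 to 0.16. The block changed no other call. At a depth like that of the retina, 32 of the 43 genes had too few counts in the cells to test.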
